A study of Mus musculus with 12 samples.

Results

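The promoters of 40 genes that drive the cell cycle and DNA replication were followed from the dividing crypts to the post-mitotic villi of the mouse small intestine. The genes were listed by name for their function, with earlier results of these data known, and they are 40 of 21853 protein-coding genes annotated on GRCm38. By role, they comprised 5 transcriptional regulators, 8 cyclins and kinases of G1, 9 factors that license replication origins, 3 genes of DNA synthesis and 15 genes of G2 and mitosis, on 18 chromosomes. A promoter here is the stretch of 1 kb on each side of any start site of a protein-coding transcript, and it was called marked when a peak overlapped it by at least 1 bp.

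The series holds 12 ChIP-seq libraries of mouse small intestine, with the scraped villi and the EDTA-released crypts each profiled for H3K4me3, H3K4me1, H3K27me3, H3K9me3, H3K9me2 and input. Peak lists of the first 4 modifications, 8 lists in all, carry the comparisons. Each compartment had 1 library per modification, so that no value has a replicate error and no difference could be tested. The labels give no treatment, strain, age or number of animals, and both fractions are mixtures of cell types, since villi hold lamina propria cells beside enterocytes and crypts hold Paneth cells beside stem and progenitor cells. In such bulk fractions a wider peak cannot be told apart from a peak carried by more of the cells.

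H3K4me3 marks the start sites of active and poised genes, H3K4me1 flanks them and marks enhancers, H3K27me3 is the mark of Polycomb silencing and H3K9me3 that of constitutive heterochromatin. In the intestinal epithelium, progenitors divide in the crypt and leave the cell cycle as they move onto the villus. Genes of G1 and S phase are classically driven by E2F factors, and those of G2 and mitosis by the MuvB complex with MYBL2 and FOXM1, which reads the cell cycle genes homology region (CHR) and often acts with NF-Y bound at CCAAT boxes.

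All 40 genes kept their H3K4me3 promoter peak in villi, as did 98.2% of all genes marked in crypts. None carried H3K27me3 (13.1% of all genes in crypts, 16.1% in villi) or H3K9me3 (0.380% and 0.311%) at the promoter. Of the 4527 genes with crypts H3K4me3 peaks of width like theirs, 152 had H3K27me3 in both compartments. The H3K4me3 peak was narrower in villi for 38 of the 40 genes, against 59.1% of all genes, and its edge inside the gene lay closer to the start site in 39, against 58.0%. Close to the start, at 500 bp into the gene, where H3K4me3 was called in all 40 genes in both compartments, H3K4me1 was called in 20 genes in crypts and 30 in villi, against 38.8% and 39.2% of all genes with H3K4me3 in both. This gain was not seen in 86 other cell cycle genes, and it was not counted at a stricter score. At a score of at least 20, H3K4me1 was called at 23 of the 40 promoters in crypts and 21 in villi.

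The promoters of 30 of the 40 genes were found in the RefSeq table of GRCm38.p6, which gives 250 bases before to 50 after a start, while those of Myc, Foxm1, Ccnd1, Ccnd2, Ccne2, Gmnn, Mcm4, Ccna2, Cdc25c and Aurkb were not. Shown 5′ to 3′ are up to 200 bases that end before the first annotated start in the window, for the gene whose H3K4me3 peak lost the largest share of its width (Rrm2), for 3 others that narrowed by 1.5-fold or more (Mki67, Plk1, Mcm6) and for the one that widened most (E2f2). Capitals mark the words searched for on both strands. A CHR word reads TTTGAA in the form most often described for mitotic promoters, while TTTAAA is the other form counted here and reads the same on either strand. An E2F word is TTTCCCGC, TTTCGCGC, TTTGCCGC or TTTGGCGC, and the third motif is the CCAAT box.
Rrm2 (chr12:24708041-24708240, plus strand): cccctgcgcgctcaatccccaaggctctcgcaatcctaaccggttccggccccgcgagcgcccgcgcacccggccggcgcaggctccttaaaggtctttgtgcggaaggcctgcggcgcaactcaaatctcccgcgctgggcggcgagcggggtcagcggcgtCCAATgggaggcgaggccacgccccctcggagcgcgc
Mki67 (chr7:135716380-135716579, minus strand): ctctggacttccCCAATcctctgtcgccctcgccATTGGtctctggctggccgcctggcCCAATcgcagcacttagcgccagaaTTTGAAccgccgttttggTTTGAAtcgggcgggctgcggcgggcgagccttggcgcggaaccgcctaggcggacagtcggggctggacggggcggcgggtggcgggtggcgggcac
Plk1 (chr7:122159235-122159434, plus strand): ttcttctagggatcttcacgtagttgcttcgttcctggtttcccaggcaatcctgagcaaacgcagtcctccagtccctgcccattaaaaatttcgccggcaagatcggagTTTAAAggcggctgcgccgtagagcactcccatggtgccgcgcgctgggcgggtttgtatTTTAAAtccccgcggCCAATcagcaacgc
Mcm6 (chr1:128359706-128359905, minus strand): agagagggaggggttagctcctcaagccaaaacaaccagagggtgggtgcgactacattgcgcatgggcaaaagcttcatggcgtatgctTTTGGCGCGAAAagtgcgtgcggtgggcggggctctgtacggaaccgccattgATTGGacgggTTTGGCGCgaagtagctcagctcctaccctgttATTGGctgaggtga
E2f2 (chr4:136172074-136172273, plus strand): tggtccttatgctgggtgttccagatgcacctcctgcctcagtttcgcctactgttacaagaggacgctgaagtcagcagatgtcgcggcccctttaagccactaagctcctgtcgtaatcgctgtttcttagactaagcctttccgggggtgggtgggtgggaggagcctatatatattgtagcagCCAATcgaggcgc

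Mki67 held 3 CCAAT boxes and 2 CHR words in the bases shown, Plk1 1 CCAAT box and 2 CHR words, and Mcm6 2 CCAAT boxes and 3 E2F words, of which a pair overlap on opposite strands. Rrm2 and E2f2 showed 1 CCAAT box each. The CHR word of Rrm2 and the E2F word of E2f2 lay beyond the stretch shown. Over the whole window of 300 bases, a CHR word was present in 15 of the 30 genes, against 27.6% of all 32851 promoters in the table and 18.8% of the promoters of genes with H3K4me3 in both compartments. A CCAAT box was present in 21 of 30, against 37.4% of all promoters and 37.6% of those with H3K4me3 in both compartments, and an E2F word in 9 of 30, against 2.26% and 4.02%. By role, CHR words were found in 11 of 12 genes of G2 and mitosis, 2 of 7 licensing genes, 1 of 3 genes of DNA synthesis, 1 of 5 G1 genes and 0 of 3 regulators. CCAAT boxes were found in 11 of 12, 5 of 7, 2 of 3, 2 of 5 and 1 of 3 in the same order, and E2F words in 1 of 12, 6 of 7, 0 of 3, 1 of 5 and 1 of 3. The median ratio of CpG observed to expected was 0.909 in these genes, 0.758 in promoters of genes with H3K4me3 in both compartments and 0.384 over the table.

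H3K4me3 covered the promoters of all 40 genes in crypts (57.7% of all protein-coding genes) and of all 40 in villi (57.9% of all). Of all genes marked in crypts, 98.2% kept a peak in villi, so retention of the mark did not set these genes apart from other marked genes. Every peak lay over an annotated start site. The median width of the 40 peaks was 2408.5 bp in crypts and 1778.5 bp in villi, whereas the medians over all genes with a peak were 1968 bp and 1871 bp. Peaks of these genes were thus wider than the typical promoter peak in crypts and narrower than it in villi.

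The width was smaller in villi for 38 of 40 genes, against 59.1% of the 12381 genes with a peak in both. A loss of 1.5-fold or more was seen in 11 of 40, against 3.59% of all genes, and no member gained 1.5-fold or more, against 3.10%. With peaks under 1 kb apart joined, the loss of 1.5-fold or more was seen in 10 of 40, against 3.30% of all genes, since Ccnd1 left the count. The median log2 ratio of villi over crypts width was -0.42 (range -1.18 to 0.13), compared with -0.04 over all genes. As the crypts peaks were wider than those of most genes, the 40 were also set beside genes of like width. Among genes with crypts peaks of 1896 to 3002 bp, the quartiles of the 40, the median log2 ratio was -0.05 for all 4527 genes and -0.41 for the 20 members, and a loss of 1.5-fold or more was seen in 3.16% of the former and in 3 of the latter.

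**Figure D1:**
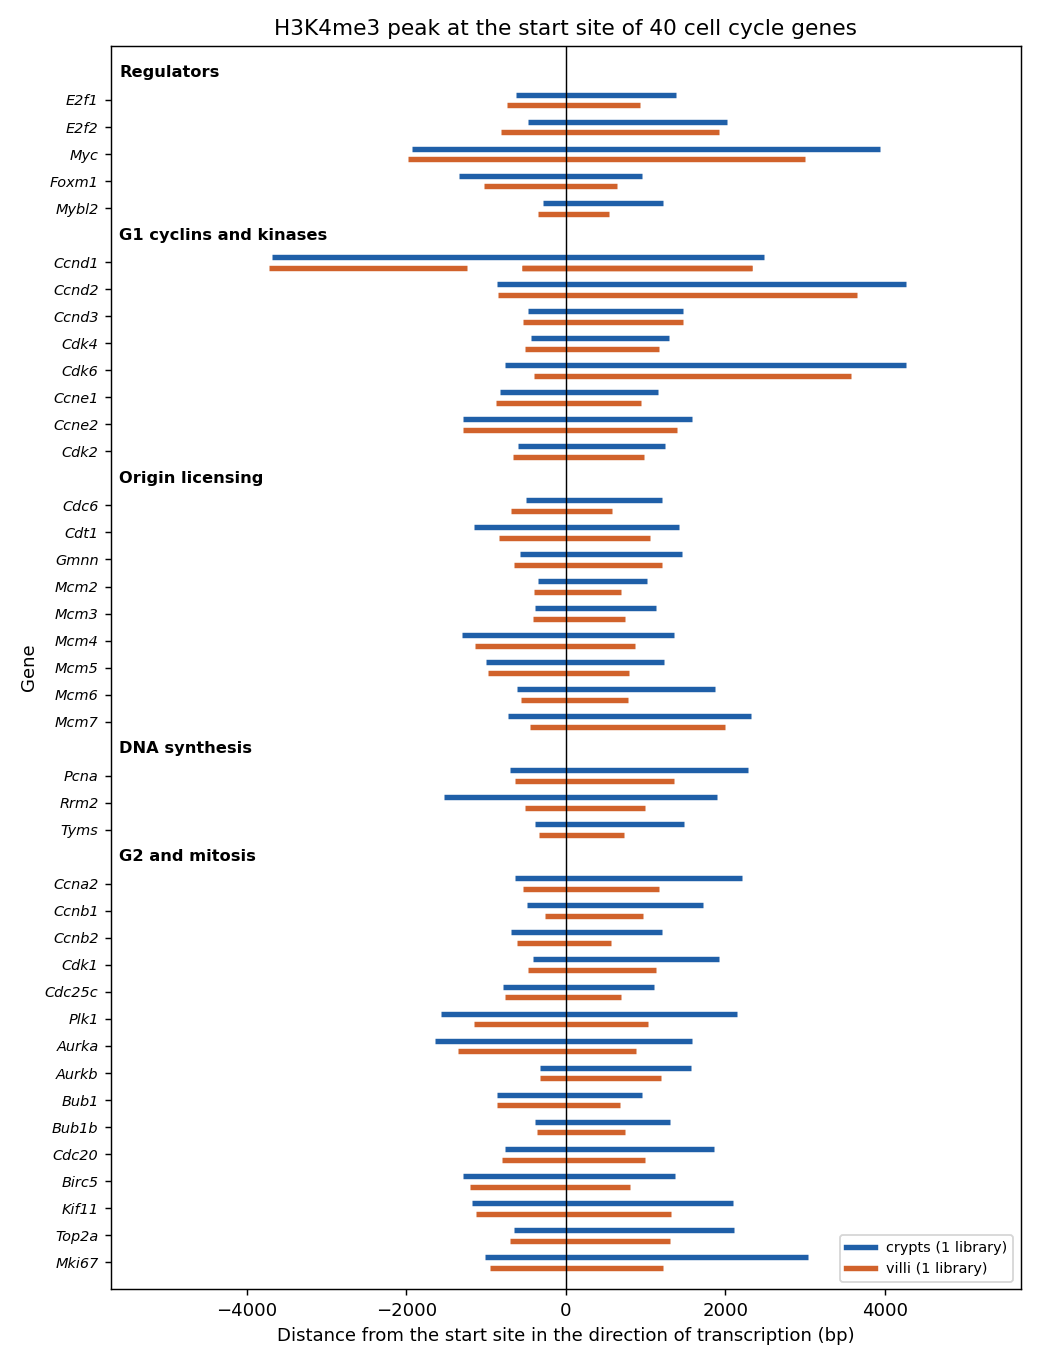
Extent of the H3K4me3 promoter peak of each of the 40 genes in crypts (blue) and villi (orange), 1 library each, along the distance in bp from the start site in the direction of transcription, with genes grouped by role. Ccnd1 has 2 bars in villi, as its crypts peak is split there. All 40 genes have a peak in both compartments, and the right-hand ends of the villi bars lie closer to the start in 39 of them.

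**Figure D2:**
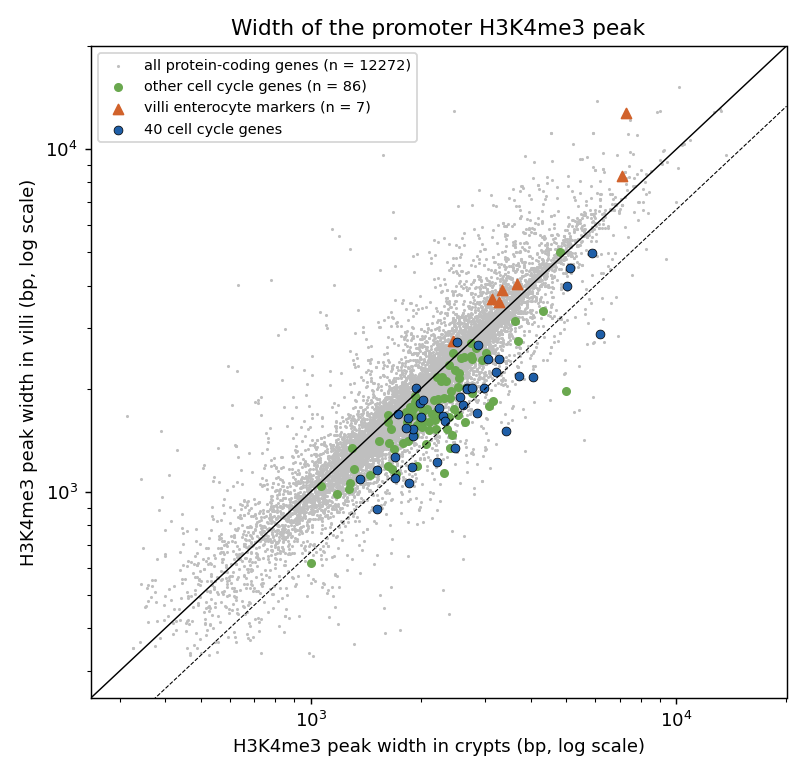
Width of the promoter H3K4me3 peak in crypts (x axis, bp, log scale) against villi (y axis, bp, log scale), 1 point per gene, for all protein-coding genes with measured edges in both compartments (grey), 86 other cell cycle genes (green), 7 villi enterocyte markers (orange triangles) and the 40 genes (blue). The solid line is equal width and the dashed line 1.5-fold narrower in villi; 38 of the 40 genes lie below the solid line and 11 below the dashed one, while all 7 enterocyte markers lie above the solid line. Ccnd1 is drawn by its widest villi peak.

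Among the regulators, Mybl2, the MYB factor that activates G2 and mitotic genes, narrowed most by ratio, from 1516 bp in crypts to 889 bp in villi. Foxm1, its partner at mitotic promoters, went from 2295 to 1665 bp, and E2f1, an activator of S-phase genes, from 2005 to 1658 bp. The broad peak of Myc, a growth regulator downstream of Wnt signalling, measured 5861 bp in crypts and 4967 bp in villi. E2f2, another activating E2F, was one of the 2 genes with a wider peak in villi (2505 bp in crypts, 2740 bp in villi), although its rank by score was at percentile 89.5 of the crypts list and 58.2 of the villi list. Apart from Mybl2 these genes stayed within 1.5-fold, and the median log2 ratio of the 5 was -0.27.

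The G1 cyclins and kinases were the role with the smallest median change, at a median log2 ratio of -0.15. At Ccnd1, the D-type cyclin induced by mitogens, the single crypts peak of 6169 bp (chr7:144937384-144943552) was called as 2 peaks in villi, 1 of 2883 bp over the start (chr7:144937534-144940416) and 1 of 2479 bp upstream of it (chr7:144941113-144943591), with a gap of 696 bp. The distance of 3136 bp between the upstream edges is therefore a split of the peak, and with the 2 villi peaks joined the width was 6058 bp, a log2 ratio of -0.03. Counted by its widest peak alone, Ccnd1 is among the 11 genes with a loss of 1.5-fold or more. Of the other D-type cyclins, Ccnd2 measured 5125 bp in crypts and 4506 bp in villi, and Ccnd3 was the second gene with a wider peak in villi (1941 and 2016 bp). Their catalytic partners differed in scale, with Cdk4 at 1731 and 1690 bp and Cdk6 at 5020 and 3979 bp in crypts and villi. Widths within 1.5-fold were also found for the E-type cyclins that trigger S phase, Ccne1 (1984 and 1816 bp) and Ccne2 (2874 and 2682 bp), and for their kinase Cdk2 (1842 and 1641 bp).

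The licensing genes, which load the replicative helicase onto origins, were all narrower in villi, and 8 of the 9 by less than 1.5-fold. Among the subunits of the MCM helicase, Mcm6 stood out with 2486 bp in crypts (chr1:128357792-128360277) and 1345 bp in villi (chr1:128358881-128360225). The other subunits kept between 75.3% and 80.3% of their crypts width, as shown by Mcm4 (2667 and 2008 bp), Mcm3 (1519 and 1157 bp), Mcm5 (2236 and 1761 bp), Mcm2 (1368 and 1091 bp) and Mcm7 (3050 and 2449 bp). The loaders Cdc6 (1701 and 1265 bp) and Cdt1 (2564 and 1894 bp) lost a similar share. Gmnn, the inhibitor of CDT1 that blocks relicensing, changed least of this role (2032 and 1860 bp).

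All 3 genes of DNA synthesis lost width, and their median log2 ratio of -0.81 was the lowest of the 5 roles. Rrm2, the subunit of ribonucleotide reductase that limits dNTP supply in S phase, had the lowest ratio of the 40, with 3417 bp in crypts (chr12:24706718-24710134) and 1507 bp in villi (chr12:24707727-24709233). Its peak receded more on the upstream side (1009 bp) than in the gene body (901 bp). Tyms, the thymidylate synthase, measured 1861 bp and 1061 bp. Pcna, the sliding clamp of the replicative polymerases, measured 2986 bp and 2004 bp and lost 920 bp on the side of the gene body.

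Of the 15 genes of G2 and mitosis, all were narrower in villi and 6 by 1.5-fold or more, with a median log2 ratio of -0.54. Mki67, the coating protein of mitotic chromosomes widely used as a marker of proliferation, measured 4044 bp in crypts (chr7:135713331-135717374) and 2166 bp in villi (chr7:135715149-135717314), a loss of 1818 bp on the gene body side and of 60 bp upstream. Plk1, a kinase of mitotic entry and exit, measured 3709 bp and 2179 bp. The same 1.5-fold loss was seen in the cyclins Ccna2 (2843 and 1700 bp), Ccnb1 (2215 and 1226 bp) and Ccnb2 (1888 and 1180 bp) and in the spindle checkpoint kinase Bub1b (1696 and 1100 bp).

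The other mitotic genes narrowed by less than 1.5-fold. Cdk1, the kinase bound by these cyclins, measured 2331 bp in crypts and 1608 bp in villi, and Cdc25c, the phosphatase that activates it, 1901 and 1451 bp. The values of the Aurora kinases were 3219 and 2237 bp for Aurka and 1899 and 1523 bp for Aurkb, and Birc5, which encodes survivin of the Aurora B complex, had 2669 and 1997 bp. Cdc20, the activator of the anaphase-promoting complex, had 2612 and 1796 bp. Values for the checkpoint kinase Bub1 were 1827 and 1535 bp, for the spindle motor Kif11 3263 and 2440 bp, and for the topoisomerase Top2a 2753 and 2009 bp.

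The change was not spread evenly over the peak. The downstream edge, inside the gene, lay closer to the start in villi in 39 of 40 genes, against 58.0% of the 12272 genes for which both edges could be placed, and by at least 200 bp in 35 of 40, against 15.8%. The exception was Ccnd3, whose downstream edge lay 12 bp farther out. The upstream edge lay closer in 23 genes and farther out in 17, a split not counted over all genes. It receded by at least 200 bp in 9 of 40, against 7.38%. The median distance was 569 bp downstream and 33.5 bp upstream for these genes, compared with 28 bp and 16 bp over all genes. In 38 of 40 genes the downstream edge receded towards the start by more than the upstream one did, counting an edge that lay farther out as negative, against 51.5% of all genes, with Ccnd1 and Rrm2 as the others. With peaks under 1 kb apart joined, this was so in 39 of 40 (51.4% of all), with Rrm2 as the exception, and the upstream edge receded by at least 200 bp in 8 of 40 (7.05% of all). By role, the median downstream distance was 207 bp for G1 cyclins and kinases, 389 bp for licensing, 460 bp for regulators, 760 bp for G2 and mitosis and 901 bp for DNA synthesis.

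**Figure D3:**
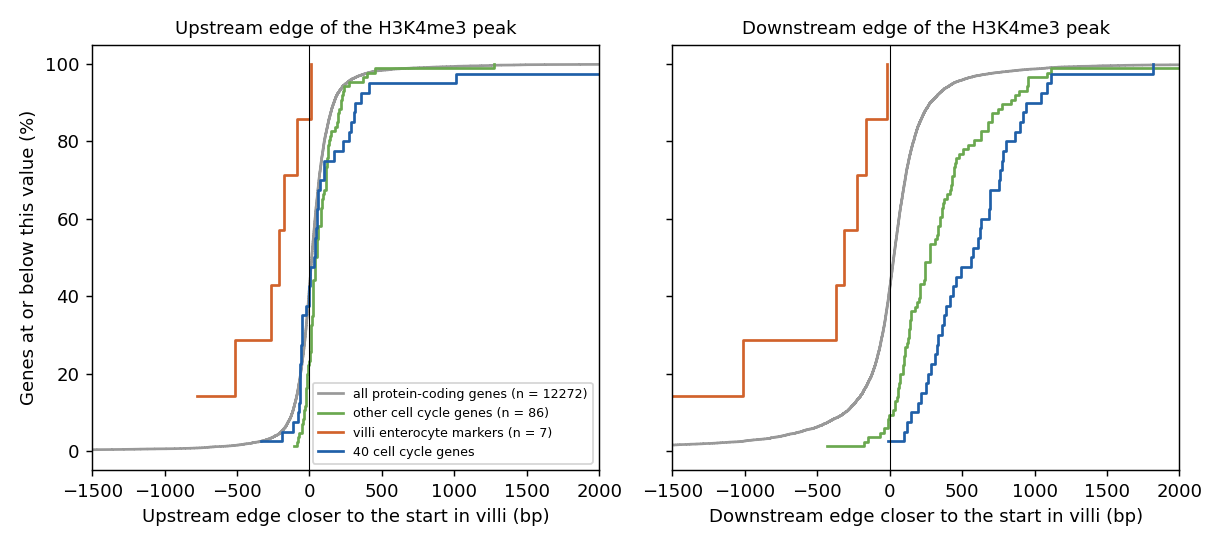
Cumulative share of genes (y axis, percent) by the distance in bp by which the upstream (left) or downstream (right) edge of the H3K4me3 peak lies closer to the start in villi than in crypts, with negative values farther out and the axis cut at -1500 and 2000 bp. The upstream curves of the 40 genes (blue) and all genes (grey) run close together around 0, while the downstream curve of the 40 lies to the right, with a median of 569 bp, that of the other cell cycle genes (green) in between at 276.5 bp, and that of the 7 enterocyte markers (orange) below 0.

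At 1000 bp into the gene, H3K4me3 was called in 38 of the 40 genes in crypts and 19 in villi. Over all genes with the mark in both compartments the share at that distance was 70.1% in crypts and 64.2% in villi. The downstream stretches of at least 200 bp that were marked in crypts and not in villi, 1 in each of 35 genes, added up to 22579 bases, all inside the genes, of which 84.2% were intronic and 15.8% exonic. These stretches mostly carried H3K4me1 as well, over 81.9% of their bases in crypts and 63.8% in villi. In all 1938 such stretches of the genome the shares were 86.3% and 73.7%. H3K4me1 cover of these stretches was lower in villi in 17 of the 35 genes, higher in 7 and equal in 11, against 30.5%, 6.60% and 62.9% of the 1938 stretches.

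H3K4me1 was called at 36 of 40 promoters in crypts (57.9% of all genes) and at all 40 in villi (56.1%). Of the 4527 genes with crypts H3K4me3 peaks of like width, 4297 had H3K4me1 in crypts, 4084 in villi and 3978 in both. A high share was thus usual among such genes. At a score of at least 20 the order turned, with 23 of the 40 in crypts and 21 in villi. With the top 50% of each list by score the counts were 23 and 24. The shares of all genes at these limits were not counted. At the authors' limit all 36 also had a promoter peak in villi, against 90.2% of all genes marked in crypts. At Foxm1, Tyms, Ccna2 and Mcm7, with 1 peak in each compartment, the peaks did not overlap. The 4 genes without H3K4me1 in crypts had it in villi, as did 9.39% of all such genes, with or without H3K4me3. These 4 were Myc (no peak in crypts and 3 in villi, the widest of 1596 bp), Cdk4 (2098 bp in villi), Mcm3 (563 bp) and Ccnb2 (1465 bp). In villi the peak of Cdk4 spanned the start site, from -585 to 1512 bp in the direction of transcription, and that of Ccnb2 ran from -603 to 861 bp.

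An H3K4me1 peak lay over an annotated start site in 11 of 40 genes in crypts (22.3% of all genes) and 20 of 40 in villi (23.7%). The 9 that differed were Myc, Ccnd1, Cdk4, Tyms, Ccna2, Ccnb2, Plk1, Bub1b and Cdc20, and no member went the other way. At Ccnd1, the crypts peak of 3622 bp ended upstream of the start, at -420 bp, and another crypts peak lay beyond 1 kb downstream. The villi peak of 6509 bp overlapped both and ran on to 2563 bp downstream. The crypts peak of Bub1b (507 bp) lay upstream of the start, and the villi peak (1578 bp) ran from -541 to 1036 bp. At Ccna2 the crypts peak (476 bp) lay upstream of the 5′-most start. The villi peak (1408 bp) lay downstream of that start and over another annotated one.

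Position by position, H3K4me1 came closer to the start in villi. At 500 bp downstream, 20 of 40 genes lay under an H3K4me1 peak in crypts and 30 in villi, while over all genes with H3K4me3 in both compartments the share was 38.8% and 39.2%. At 800 bp the numbers were 26 and 35 of 40 (55.1% and 50.7% of all). Farther out the order turned, with 16 genes in crypts and 12 in villi at 2000 bp, where all genes gave 37.4% and 35.9%. Within 1 kb of their start sites, 25 genes had more bases under H3K4me1 in villi and 15 had fewer. This split was not counted over all genes. The median cover was 892 bp in crypts and 1249 bp in villi. The same medians were 471 and 416 bp over all genes, 956 and 850 bp over genes with crypts H3K4me3 peaks of like width, and 841.5 and 767 bp over 86 other cell cycle genes.

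**Figure D4:**
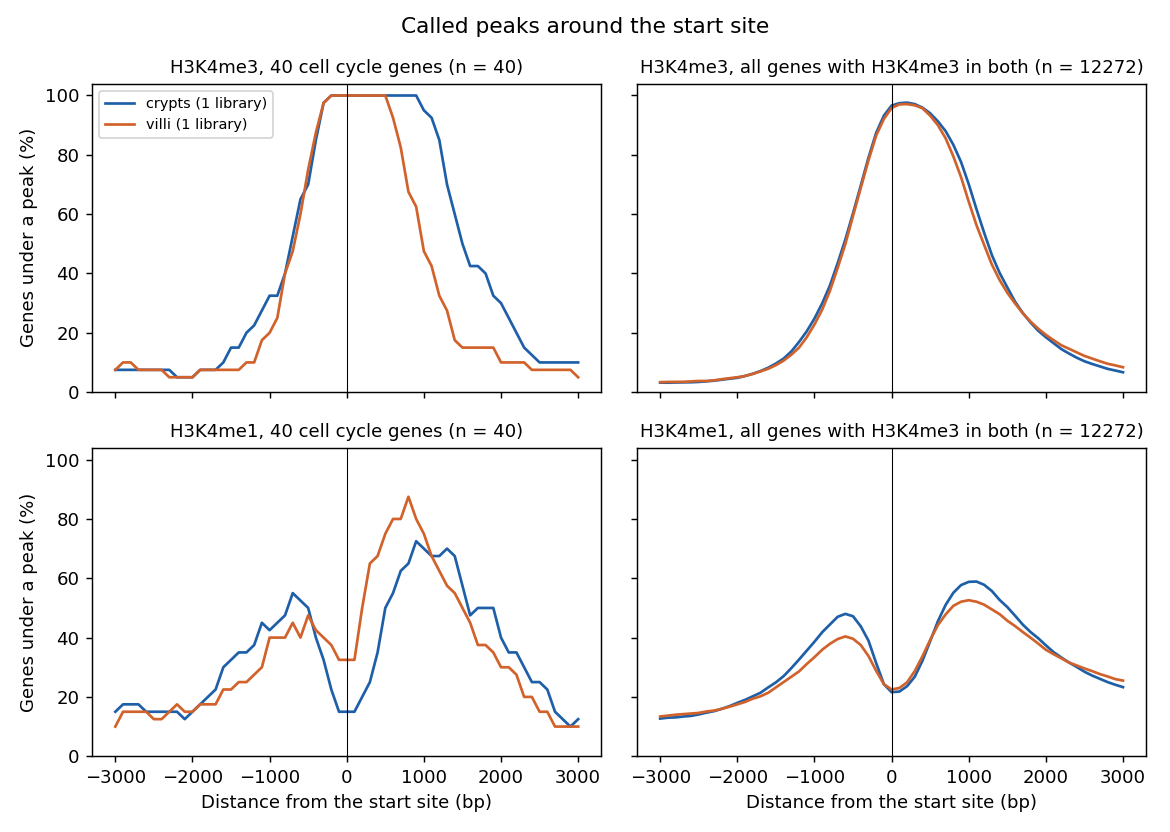
Share of genes under a called peak (y axis, percent) at each 100 bp from 3000 bp upstream to 3000 bp downstream of the start site, for H3K4me3 (top) and H3K4me1 (bottom) in the 40 genes (left) and all 12272 genes with H3K4me3 edges in both compartments (right), in crypts (blue) and villi (orange), 1 library each. In the 40 genes the H3K4me3 curve falls earlier downstream in villi, with 19 genes at 1000 bp against 38 in crypts, and the H3K4me1 curve rises nearer the start, with 30 genes at 500 bp against 20. Over all genes the curves of the compartments nearly overlap for H3K4me3.

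The full width of the H3K4me1 peaks did not show the same uniform loss. Of the 36 genes with a peak in both, 24 had a narrower one in villi (48.0% of all genes) and 12 a wider one, and the median log2 ratio was -0.16. Past 1.5-fold, 6 genes were narrower (13.6% of all), namely Mcm5, Tyms, Ccnb1, Cdc25c, Bub1 and Birc5, and 4 were wider (13.7% of all), namely Ccnd1, Rrm2, Ccna2 and Bub1b. The ratio sets the widest peaks of the 2 compartments side by side, whether or not they overlap. Those of Tyms, Ccna2, Foxm1, Mcm7, Cdk6 and Ccnd3 did not overlap, so their ratios do not describe 1 peak that changed width. At Rrm2 the single villi peak of 4511 bp overlapped 2 crypts peaks, which measured 4974 bp in sum, so its count as wider rests on the widest crypts peak alone. The count of Ccnd1 has the same limit, as its villi peak also overlapped another crypts peak beyond 1 kb downstream. The shares past 1.5-fold are near those of all genes. The widest domains, at E2f2 (9116 bp in crypts, 9237 bp in villi) and Cdc6 (7345 and 6743 bp), were nearly the same in both compartments.

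**Figure D5:**
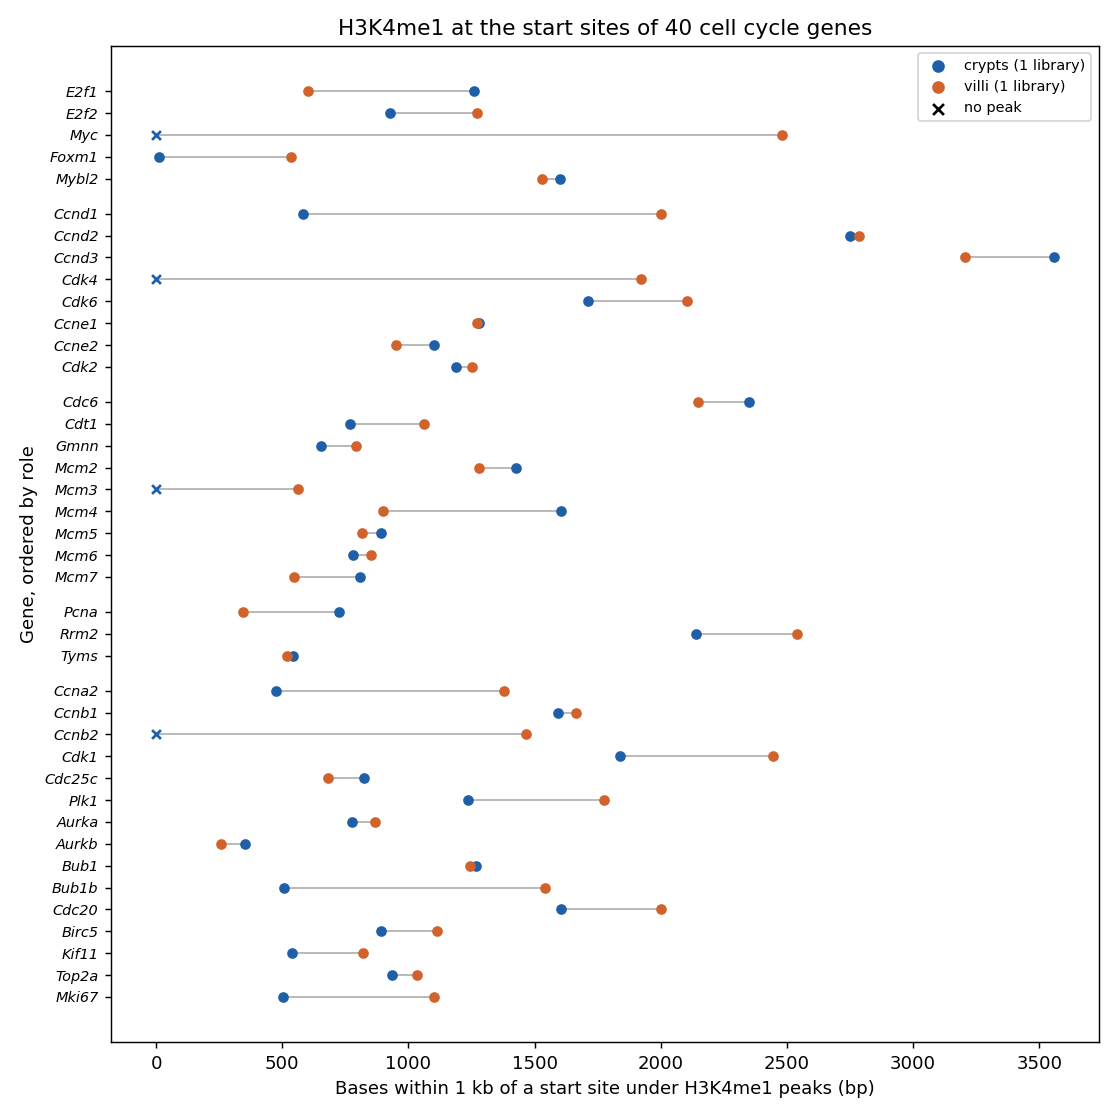
Bases within 1 kb of a start site that lie under H3K4me1 peaks (x axis, bp) for each of the 40 genes in crypts (blue) and villi (orange), 1 library each, ordered by role, with crosses for genes without a peak; genes with several start sites have windows of more than 2000 bp. Cover is higher in villi for 25 genes and lower for 15, a split not counted over all genes. The 4 crosses are Myc, Cdk4, Mcm3 and Ccnb2 in crypts.

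Neither repressive mark was found at these promoters. H3K27me3 was called at 0 of 40 in crypts (13.1% of all genes) and 0 of 40 in villi (16.1%), and H3K9me3 at 0 of 40 in both (0.380% and 0.311%). Of the 4527 genes with crypts H3K4me3 peaks of like width, 152 had H3K27me3 in both compartments. Those with it in 1 compartment only were not counted. With H3K9me3 rare over all genes and H3K27me3 rare at like width, absence of either says little about these genes in particular. No peak of either mark overlapped the body of any of the 40 genes. The nearest H3K27me3 peak lay upstream of Ccnd2, at 1704 bp from a start in crypts and 1259 bp in villi, and that near Bub1 at 5854 and 1962 bp. The median distance to the nearest H3K27me3 peak was 102138 bp in crypts and 55439 bp in villi, in lists of 7611 and 13797 peaks. The nearest H3K9me3 peak belonged to Ccne2, at 6762 bp in crypts and 7366 bp in villi.

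The strength of the H3K4me3 peaks was read only as the rank of the score within its own list. It was lower in villi for 29 genes and higher for 10, a split not counted over all genes. The median change was -5.55 percentile points, compared with 0.642 over all genes. Narrowing and rank did not go together in each gene. Rrm2 and Plk1, which narrowed by 1.5-fold or more, ranked higher in villi, at percentiles 81.3 and 82.8, than in crypts, at 66.8 and 65.2, respectively.

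Of the 40 genes, 5 share the crypts H3K4me3 peak with the start of a neighbour on the opposite strand. These pairs are Foxm1 with Rhno1, Cdk2 with Pmel, Mcm4 with Prkdc, Mcm7 with Ap4m1 and Aurka with Cstf1. Their median log2 ratio was -0.41, and that of the 35 other genes -0.42. The median downstream distance was 329 bp and 612 bp, in the same order.

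A further 86 cell cycle genes outside the 40, all with H3K4me3 peaks in both compartments, gave the same direction at a smaller size. Their peaks were narrower in villi in 82 of 86 and by 1.5-fold or more in 12, with a median log2 ratio of -0.27, and their downstream edge lay a median of 276.5 bp closer to the start. H3K4me1 did not follow the pattern of the 40, since it was called at 83 of the 86 promoters in crypts and 73 in villi, and at 500 bp downstream in 43 and 42 genes. It was called in crypts only at Rbl2, Prim1, Rpa1, Rfc1, Rfc3, Rfc5, Cenpe, Kif4, Kif18a, Smc4 and Ncapd2, and in villi only at Mad2l1. H3K27me3 was called at 1 of the 86 promoters in crypts and 3 in villi (3.49%, against 16.1% of all genes), with E2f6 marked in both (1579 bp in crypts, 4500 bp in villi) and E2f7 (1021 bp) and E2f8 (503 bp) in villi only. H3K9me3 was called at Orc2 in crypts only.

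Markers of the cells in each fraction moved with these results, and their part in them was not tested. Enterocyte markers (Alpi, Vil1, Apoa1, Apoa4, Fabp1, Fabp2, Anpep) had H3K4me3 peaks in both compartments, and all 7 were wider in villi, with a median log2 ratio of 0.22. Of 6 crypts markers, Lgr5 (2989 and 1356 bp), Smoc2 (3402 and 1689 bp) and Ascl2 (2358 and 2045 bp) were narrower in villi, Olfm4 had a peak in crypts only (4388 bp), and Lyz1 and Mmp7 had none. Leukocyte markers had a peak at 0 of 6 promoters in crypts and 3 of 6 in villi (Ptprc, Cd3e and Cd8a), those of mesenchyme and muscle at 1 and 2 of 6, and those of endothelium at 0 and 1 of 3. All 5 epithelial markers had one in both. Peak widths also move with depth and enrichment, which the lists do not give, and the median width of the whole H3K4me3 list was 1584 bp in crypts (16489 peaks) and 1498 bp in villi (16977 peaks).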

How the data were processed

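Crypts and villi of mouse small intestine were profiled by spike-in ChIP-seq (5% of S2 Drosophila chromatin). Following the study's methods, the authors mapped paired reads to the mouse (mm10) and fly (dm6) genomes with Bowtie 1.1.2, removed PCR duplicates, and called peaks per library with MACS2 2.1.1 at 1e-10. The deposited lists give position and a score that matches a −log10 p-value (all at least 10); whether it is p or q is not stated, and no spike-in scaling enters the score. Calling of H3K9me2 is not described, and its lists (6 peaks in crypts, 3 in villi) were used only to check that none overlaps the 40 genes. The lists carry no read counts, so the depth is unknown.

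Coordinates are 1-based on GRCm38 (mm10). Start sites are those of protein-coding transcripts of GENCODE mouse release 21, without the mitochondrial genome. The widest peak within 1 kb of any start stood for a promoter, and its edges were measured from the 5′-most start under both peaks. Shares over 21853 genes are given as background and carry no test. All 40 genes were named; other genes were named where a start lay under the peak of one of the 40, or where a cell cycle gene had a peak in 1 compartment. Cell type markers and E2f6 were named outside this rule, E2f6 after its values were seen. The genes, lists and motifs were chosen with earlier results of these data known. Comparison at like width, the edge measures, the counts with joined peaks and the sets without neighbours or with 1 start were chosen after seeing the data. Python 3.11.15, NumPy 2.4.6, pandas 2.3.3 and Matplotlib 3.10.9 were used, and the overlap code was tested on simulated data.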

Additional observations from a re-analysis of the deposited data

How the results depend on the processing

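Presence of H3K4me3 at the 40 promoters held for windows of 500, 2000 and 5000 bp, 1 start per gene, a score of at least 20 and an overlap of at least 200 bp. With the top 50% of each list by score, 35 genes remained in crypts and 32 in villi. H3K4me1 depended on the score. Its 36 genes in crypts became 23 with the top 50% and 23 with a score of at least 20, and its 40 in villi became 24 and 21, so the excess in villi over crypts was not kept at the higher score. The shares of all genes under these 2 settings were not counted. H3K27me3 was found near 1 gene in crypts (Ccnd2) and 2 in villi (Ccnd2 and Bub1) with windows of 2000 and of 5000 bp. The median log2 width ratio of H3K4me3 (-0.42) was -0.21 when bases of the window covered replaced peak width, by construction, as bases beyond the window then do not enter. That of H3K4me1 (-0.16) turned to 0.10 under the same setting, the gain near the start given above. With peaks under 1 kb apart joined, 10 genes in place of 11 narrowed by 1.5-fold or more, since Ccnd1 is split in villi. The median lay between -0.44 and -0.41 for H3K4me3 and between -0.20 and -0.07 for H3K4me1 under the other settings, those added later included.

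No paired analysis was possible because each compartment has 1 library per modification. A list holds no peaks under the score limit, and no read depth, so a missing peak is not an absent mark.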
